A study of Mus musculus with 35 samples.

Results

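The colony-stimulating factor receptors and ligands are 7 genes of the 55401 in the count table, taken by name: Csf1r, Csf1, Il34, Csf2ra, Csf2rb, Csf2rb2 and Csf3r. Their read counts were compared in microglia of wild-type C57BL/6 mice of both sexes at postnatal day 6 (P6), P15 and 8 weeks. Cells came from digested whole brain and were caught on plates coated with an antibody to CD45, a surface protein of blood-derived and resident immune cells, so every group is a CD45+ fraction and not a sort on a microglial marker. One library was made per mouse. There were 4 P6 females, 6 P6 males and 6 mice of each sex at both later ages, 34 in all, after P6 female 6 was left out. Its microglial markers summed to 2818 CPM, against 6313 to 11327 CPM in the other P6 mice.

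CSF1R is a receptor tyrosine kinase that binds 2 ligands, CSF1 and IL-34, and microglia depend on its signal to survive and divide. In the brain IL-34 is known mainly from neurons, and CSF1 from glia, microglia included. The receptor for GM-CSF joins an alpha chain encoded by Csf2ra to a beta chain encoded by Csf2rb, which also serves the receptors for IL-3 and IL-5. Mice carry a further beta chain gene, Csf2rb2, whose product works with the IL-3 receptor. Csf3r encodes the receptor for G-CSF, best known from neutrophils.

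The beta chain genes are near copies, which bears on how far their counts can be told apart. In GRCm38, Csf2rb (ENSMUSG00000071713, chr15:78325752-78353847, plus strand) and Csf2rb2 (ENSMUSG00000071714, chr15:78282507-78305721, minus strand) are neighbours on opposite strands. Their longest open reading frames of 2691 and 2637 bases are identical at 2505 of 2631 aligned bases (95.2%). Of the distinct stretches of 100 bases, the length of a read, in all annotated transcripts of each gene, 334 occur in both genes, 4.63% of the 7218 of Csf2rb and 6.82% of the 4897 of Csf2rb2. A read within those stretches can be assigned only through its mate, since fragments were read from both ends, and how many fragments that left unassigned was not tested. The 60 bases that differ most lie at bases 304 to 363 of the Csf2rb frame and 307 to 366 of the Csf2rb2 frame. They hold 13 mismatches, shown in capitals, and a read across them can be assigned.
Csf2rb: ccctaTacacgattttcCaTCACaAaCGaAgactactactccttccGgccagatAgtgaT
Csf2rb2: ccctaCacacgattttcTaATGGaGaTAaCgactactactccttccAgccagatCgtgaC

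The promoters of Csf3r and Csf1 are shown because these genes moved furthest in opposite directions with age in the fit without covariates, Csf3r upwards and Csf1 downwards. Each runs from 250 bases before the RefSeq start site to 50 after it in GRCm38.p6, Csf3r at chr4:126024409-126024708 on the plus strand and Csf1 at chr3:107760420-107760719 on the minus strand. Both strands were searched for GAGGAA, the purine-rich core bound by PU.1, and matches are in capitals.
Csf3r: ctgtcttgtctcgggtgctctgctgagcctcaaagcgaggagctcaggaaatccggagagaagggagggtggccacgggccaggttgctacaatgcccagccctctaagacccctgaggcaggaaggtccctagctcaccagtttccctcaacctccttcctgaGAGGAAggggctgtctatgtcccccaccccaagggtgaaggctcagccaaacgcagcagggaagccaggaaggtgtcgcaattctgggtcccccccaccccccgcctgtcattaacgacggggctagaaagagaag
Csf1: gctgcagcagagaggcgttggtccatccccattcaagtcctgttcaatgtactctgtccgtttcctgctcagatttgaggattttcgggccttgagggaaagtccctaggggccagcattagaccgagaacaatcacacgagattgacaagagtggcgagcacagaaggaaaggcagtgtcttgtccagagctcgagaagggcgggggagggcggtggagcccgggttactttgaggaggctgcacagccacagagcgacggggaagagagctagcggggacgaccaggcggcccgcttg

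GAGGAA occurred 86 bases before the RefSeq start site of Csf3r and nowhere in the Csf1 window. The annotated start of the Csf3r gene, chr4:126024550, lies upstream of that site, so this match falls inside the annotated gene. The Csf2ra window held it at -14 and -8, and the Csf2rb2 window at -167 and 29 on the other strand. It occurred in 28.3% of 32851 promoters of the same length. TGTGGT, bound by RUNX factors (16.8% of promoters), TTGCGCAA, bound by C/EBP factors (0.183%), and TATAAA (13.6%) matched none of the 4 windows. A match is a description of letters, not of binding.

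In the same build, Csf1r (ENSMUSG00000024621) is at chr18:61100598-61132149 on the plus strand, Csf3r (ENSMUSG00000028859) at chr4:126024550-126044440 on the plus strand and Csf2ra (ENSMUSG00000059326) at chr19:61223957-61228429 on the minus strand. The ligand genes are Csf1 (ENSMUSG00000014599) at chr3:107741048-107760469 and Il34 (ENSMUSG00000031750) at chr8:110741829-110805924, both on the minus strand. Of the exon bases of Csf1r, 873 (15.1%) also belong to Hmgxb3 on the other strand, and Il34 shares 22 and 75 exon bases with the antisense genes Gm15894 and Gm15895. The reads were counted by strand.

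Totals ran from 23316107 to 38965078 counts per mouse (median 32742525 over 35 mice). CPM is the unit that scales each count to the size of its library. Scaled by these totals, 3 counts corresponded to 0.0770 to 0.129 CPM. The CPM levels of genes and marker lists use library sizes adjusted by TMM, a scaling factor for each library. The range for 3 counts is therefore only an approximate guide to those levels. All 7 genes passed the filter of 0.5 CPM in at least 5 mice, as did 17612 genes in all. The cell label held against its markers: the 8 microglial genes summed to medians of 7405, 20091 and 22626 CPM at P6, P15 and 8 weeks. Genes of other cells were also present. Progenitor and immature neuron markers summed to medians of 1658, 326 and 103 CPM, neuronal markers to 693, 315 and 110, and astrocyte markers to 612, 2691 and 2270. Oligodendrocyte markers summed to medians of 503, 1392 and 519 CPM, endothelial markers to 560, 447 and 401, and cell division markers to 639, 110 and 13.8. Markers of monocytes and border macrophages, immune cells that also carry CD45, summed to medians of 976, 860 and 483 CPM, led by Mrc1. Between P6 and 8 weeks 4 of these 9 fell, 2 rose (Ly6c2 and Ccr2, the latter with a log2FC of 3.05) and 3 did not pass, beside 36.6% of all genes called lower and 37.8% higher. Of 8 lymphocyte markers 7 rose and Cd79b fell, and the 8 summed to medians of 29.3, 47.9 and 41.6 CPM. Neutrophil markers summed to 33.0, 45.9 and 87.4 CPM, and Ly6g, a defining neutrophil gene, stayed under the filter. The 6 dendritic cell markers summed to medians of 25.2, 21.96 and 24.9 CPM, and between P6 and 8 weeks 3 of the 4 tested rose (Cd209a by 3.84, Flt3 by 1.16 and Ccr7 by 0.87 on the log2 scale) and Zbtb46 fell. Their part in the values of the 7 genes was not tested. In these bulk samples fewer cells of a type and less RNA per cell cannot be told apart.

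Per kilobase of merged exons, which allows genes to be compared, Csf1r was the highest of the 7 at every age and Il34 the lowest. The Csf1r mean was 710 ± 163 CPM per kilobase at P6 (SD, n = 10), 1728 ± 407 at P15 (n = 12) and 1717 ± 283 at 8 weeks (n = 12). It ranked 41, 22 and 20 among 17600 genes at the 3 ages. Csf3r followed Csf1 at P6, with 45.5 ± 9.07 against 68.4 ± 20.2 CPM per kilobase, and exceeded it at P15, with 141 ± 33.3 against 30.0 ± 8.43. At 8 weeks the Csf3r mean was 246 ± 24.5 and the Csf1 mean 22.2 ± 6.39 CPM per kilobase. Csf3r thus moved from rank 968 to 144 between P6 and 8 weeks, and Csf1 from 595 to 2085. The GM-CSF receptor chains were below Csf3r at every age, and Csf2ra was above Csf1 at 8 weeks. Csf2ra had means of 23.5 ± 3.74, 24.1 ± 5.01 and 36.6 ± 6.48 CPM per kilobase, Csf2rb 14.6 ± 3.02, 17.9 ± 4.39 and 18.4 ± 3.01, and Csf2rb2 10.3 ± 1.87, 18.0 ± 4.12 and 19.5 ± 2.33. At P15 and at 8 weeks the 2 beta chain genes differed by less than their spread, and at 8 weeks so did Csf1 and either of them. This rests on the merged exon length: per kilobase of the longest transcript the means were 26.6 for Csf2rb and 18.0 for Csf2rb2 at P15, and 27.4 and 19.5 at 8 weeks, when Csf1 had 28.0. Il34 had 2.55 ± 0.968, 4.29 ± 2.59 and 3.40 ± 1.54 CPM per kilobase.

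**Figure D1:**
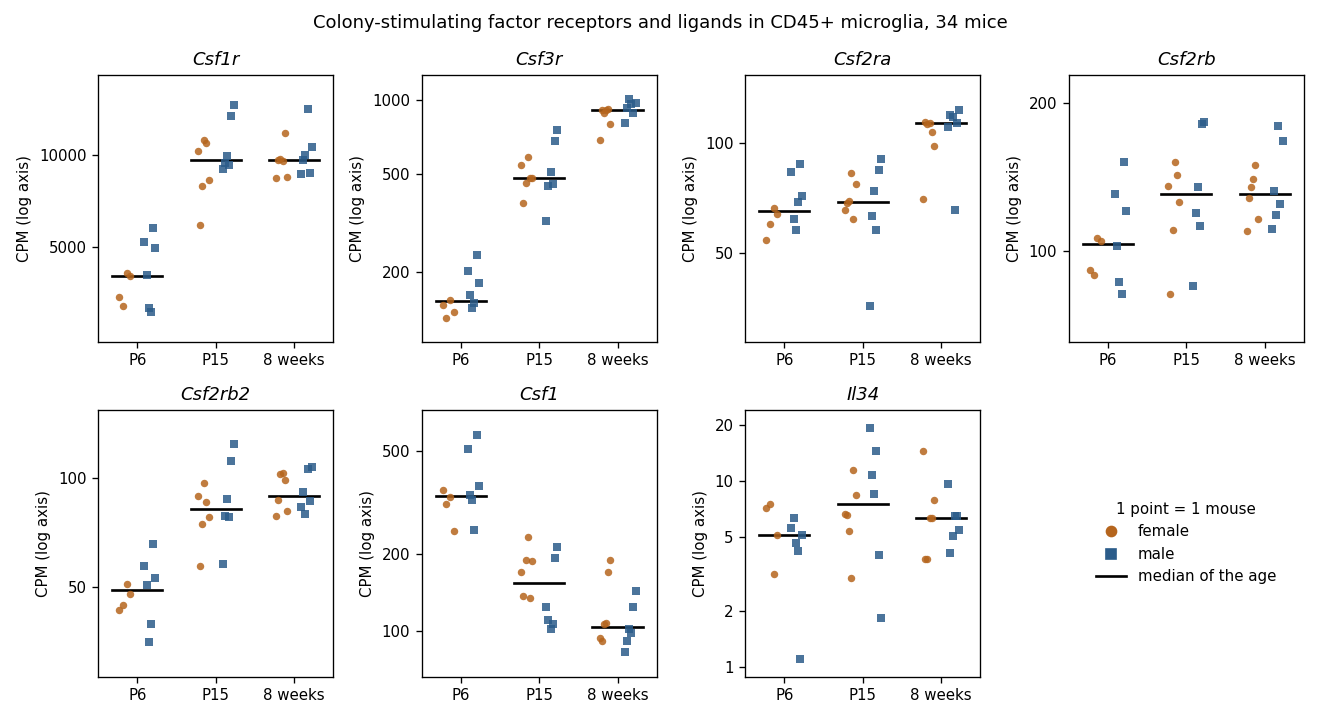
CPM of each gene on a log axis for every mouse at P6, P15 and 8 weeks, with females as circles, males as squares and the median of the age as a bar. The Csf1r and Csf3r points at P6 all lie below those at P15 and 8 weeks, the Csf1 points at P6 all lie above them, and the Il34 ranges overlap at all ages.

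The age comparisons ask how the receptor system of microglia differed between the early postnatal brain, the juvenile brain and the adult brain. From P6 to 8 weeks, 5 of the 7 genes rose (Csf1r, Csf3r, Csf2ra, Csf2rb and Csf2rb2), where 37.8% of all genes tested were called higher. Csf1 fell, where 36.6% of all genes were called lower, and Il34 did not pass. With the neuronal and progenitor markers as a covariate 2 were called higher and 2 lower, and for 8 weeks against P15 1 higher and 4 lower. The shares of all genes called with this covariate were not counted, and its marker means do not overlap between P6 and 8 weeks. A change past 2-fold was called for Csf3r and Csf1r upwards (11.5% of all genes) and for Csf1 downwards (12.4%). The Csf1r call past 2-fold was lost for 8 weeks against P6 with library size scaling (FDR 0.0525), with DESeq2 (FDR 0.0909), without P6 female 2 (FDR 0.0573) and with the neuronal and progenitor markers as a covariate. From P6 to P15, 4 genes rose (30.4% of all genes) and Csf1 fell (31.4%). With the same covariate, which these shares do not cover, 4 were called higher and 3 lower (Csf1, Csf2ra and Csf2rb). Past 2-fold, Csf1r and Csf3r were called higher (4.87%), Csf1r not with DESeq2 (FDR 0.163), limma-voom (FDR 0.116), library size scaling (FDR 0.0895), the same covariate or without P6 female 1 (FDR 0.0594) or 2 (FDR 0.0881). No member was called lower past 2-fold (4.85%), with 0 by edgeR's glmTreat and an unadjusted p of 0.0612 for Csf1. From P15 to 8 weeks, Csf3r and Csf2ra rose (24% of all genes) and Csf1 fell (23.9%). No member was past 2-fold in that step by glmTreat, where 1.2% of all genes were called higher and 3.07% lower, and none had an unadjusted p under 0.05 against that threshold. Where no other tool is named, FDR values against no change are from edgeR's quasi-likelihood test and those past 2-fold from glmTreat. The fit without covariates covered 17612 genes, whose median log2FC was -0.01, 0.02 and 0.04 in the 3 comparisons.

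**Figure D2:**
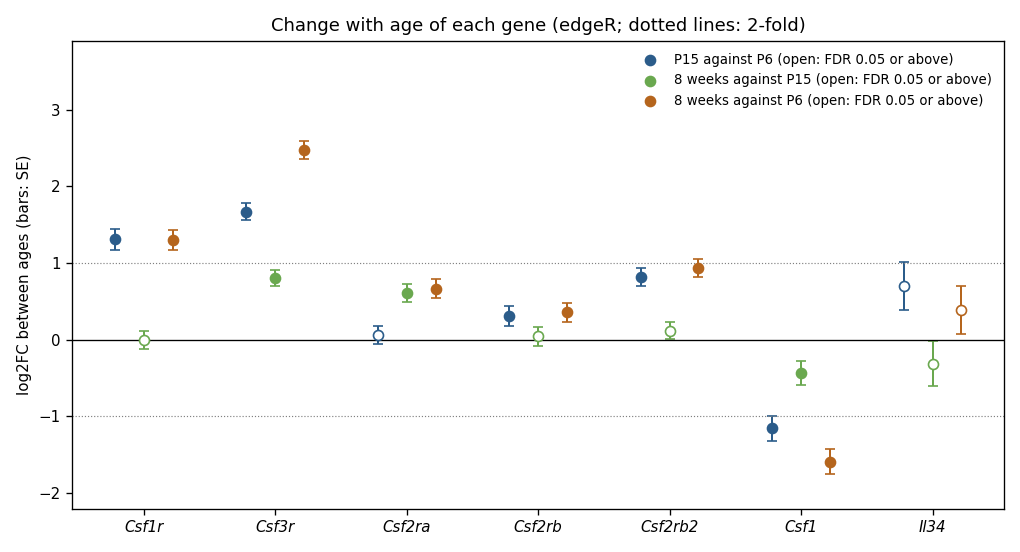
log2FC of each gene between ages with its SE as a bar, from the edgeR fit on 34 mice; filled points have an FDR below 0.05 and dotted lines mark a 2-fold change. Csf3r stands highest with 2.47 between P6 and 8 weeks, Csf1 lowest with -1.59, and Csf1r is near 0 between P15 and 8 weeks.

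Csf1r, the receptor for CSF1 and IL-34, rose between P6 and P15, and no change passed the test between P15 and 8 weeks. Its lowest, median and highest CPM were 3070, 4033 and 5772 at P6, 5893, 9637 and 14555 at P15 and 8411, 9607 and 14094 at 8 weeks. All 12 P15 mice and all 12 mice of 8 weeks were above every P6 mouse. Such a gap between ranges was found for 13% of all genes between P6 and P15, 29.6% between P6 and 8 weeks and 3.37% between P15 and 8 weeks. The log2FC was 1.31 (SE 0.133, FDR 5.07e-10) for P15 against P6 and -0.0041 (SE 0.121, FDR 0.981) for 8 weeks against P15. For 8 weeks against P6 it was 1.30 (SE 0.132, FDR 2.51e-10). The 8 microglial markers rose as well, all 8 of them beside 37.8% of all genes, with a median log2FC of 1.66 between P6 and 8 weeks, and the part of this shift in the Csf1r value was not tested. With the neuronal and progenitor markers as a covariate, the 8-week against P6 value became 0.13 (FDR 0.567), although the marker means of the 2 ages do not overlap (4.75 to 6.47 log2 CPM at P6 and 1.83 to 3.43 at 8 weeks). The same covariate gave 0.80 (FDR 2.67e-08) for P15 against P6 and a called fall of -0.68 (FDR 1.96e-05) for 8 weeks against P15. With P6 female 6, whose Csf1r level was 1546 CPM, the log2FC was 1.38.

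Csf3r, the G-CSF receptor gene, showed the largest change among the 7 genes in the fit without covariates, where it rose at both steps. It had a lowest, median and highest CPM of 131, 152 and 235 at P6, 322, 481 and 754 at P15 and 688, 909 and 1009 at 8 weeks. P6 did not overlap with either later age, and 11 of the 12 mice of 8 weeks were above every P15 mouse. The log2FC was 1.67 (SE 0.115, FDR 7.37e-14) from P6 to P15 and 0.80 (SE 0.104, FDR 2.45e-07) from P15 to 8 weeks. Between P6 and 8 weeks it reached 2.47 (SE 0.120, FDR 3.37e-18). Neutrophils also express Csf3r, and 4 of the 8 neutrophil markers tested rose past 2-fold between P6 and 8 weeks (11.5% of all genes), S100a9 with a log2FC of 2.16 and Retnlg with 2.36, while the other 4, Cxcr2 among them, did not pass. The 9 neutrophil markers together summed to 34.95 to 224 CPM at 8 weeks, and the part of neutrophils in the Csf3r values was not tested. Within groups Csf3r and the neutrophil markers had r = -0.18 (permutation p = 0.38), and with those markers as a covariate the log2FC was 2.51. With the neuronal and progenitor markers as a covariate it was 1.36 (FDR 1.8e-10) between P6 and 8 weeks, whose marker means do not overlap. It was 0.18 (FDR 0.0833) between P15 and 8 weeks.

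Csf2ra, the alpha chain of the GM-CSF receptor, rose late. The lowest, median and highest CPM were 54.4, 65.02 and 87.6 at P6, 35.8, 68.9 and 90.3 at P15, and 65.3, 113 and 122 at 8 weeks. P6 and P15 overlapped almost fully, and 10 of the 12 mice of 8 weeks were above all mice of both younger ages. The P15 against P6 log2FC was 0.06 (SE 0.122, FDR 0.684). It was 0.61 (SE 0.115, FDR 7.74e-05) for 8 weeks against P15 and 0.67 (SE 0.123, FDR 1.45e-05) for 8 weeks against P6. Neither rise passed with the neuronal and progenitor markers as a covariate, with 0.12 (FDR 0.561) and -0.20 (FDR 0.491), the latter across marker means that do not overlap. The P15 against P6 value turned to a called fall of -0.32 (FDR 0.0423).

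The shared beta chain gene Csf2rb had the smallest changes that were called. Its lowest, median and highest CPM were 81.7, 103 and 151 at P6, 81.8, 130 and 182 at P15 and 110, 130 and 180 at 8 weeks. The ranges overlapped at all ages. The log2FC of 0.31 (SE 0.128, FDR 0.0341) for P15 against P6 was not past the threshold when the counts were scaled by library size alone (FDR 0.114), without P6 female 1 (FDR 0.0642) or without P6 female 2 (FDR 0.0852). It was 0.36 (SE 0.128, FDR 0.0128) for 8 weeks against P6, and 0.29 (FDR 0.0501) without P6 female 2. For 8 weeks against P15 it was 0.04 (SE 0.120, FDR 0.775). With the neuronal and progenitor markers as a covariate the direction turned, to -0.26 (FDR 0.0108) for P15 against P6 and -0.70 (FDR 1.42e-06) for 8 weeks against P15. It was -0.96 (FDR 3.34e-06) for 8 weeks against P6, across marker means that do not overlap.

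Csf2rb2, the beta chain gene of the IL-3 receptor, rose more than its neighbour. Its lowest, median and highest CPM were 35.2, 49.0 and 65.7 at P6, 57.1, 82.2 and 124 at P15 and 78.5, 89.4 and 108 at 8 weeks. All mice of 8 weeks and 10 of 12 P15 mice were above every P6 mouse. The log2FC was 0.82 (SE 0.116, FDR 3.63e-07) for P15 against P6 and 0.93 (SE 0.116, FDR 1.55e-08) for 8 weeks against P6, and it was 0.12 (SE 0.107, FDR 0.368) between P15 and 8 weeks. The covariate of neuronal and progenitor markers turned the 8-week against P6 value to -0.21 (FDR 0.225), across marker means that do not overlap. It gave 0.32 (FDR 0.00139) for P15 against P6 and -0.53 (FDR 3.65e-05) for 8 weeks against P15. Summed into 1 row, the 2 beta chain genes had a log2FC of 0.57 (FDR 1.3e-04) between P6 and 8 weeks.

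Csf1, which encodes the main CSF1R ligand, was the only member called lower in the fit without covariates. Its lowest, median and highest CPM were 246, 335 and 581 at P6, 102, 153 and 233 at P15 and 83.5, 104 and 190 at 8 weeks. Every later mouse was below every P6 mouse, and 6 of the 12 mice of 8 weeks were below every P15 mouse. The log2FC was -1.15 (SE 0.160, FDR 2.63e-07) for P15 against P6, -0.43 (SE 0.152, FDR 0.0196) for 8 weeks against P15 and -1.59 (SE 0.161, FDR 2.54e-10) for 8 weeks against P6. It fell under every alternative in all 3 comparisons. With the neuronal and progenitor markers as a covariate the 8-week against P6 value was -2.61, across marker means that do not overlap. Per kilobase, the ratio of Csf1r to Csf1 in a mouse had a median of 10.2 at P6 (8.86 to 14.99), 63.1 at P15 (38.2 to 88.1) and 82.2 at 8 weeks (40.6 to 130).

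Tissue digestion is known to induce immediate early and stress genes in microglia, and 9 such genes were looked at after the values of Csf1 were seen. Fos, Junb, Egr1, Atf3, Ier2, Dusp1, Nfkbiz, Ccl3 and Ccl4 were abundant at all ages, with summed medians of 7038, 7526 and 10045 CPM at P6, P15 and 8 weeks. From P6 to 8 weeks 4 of the 9 rose, 1 fell (Ier2) and 4 did not pass, beside 37.8% of all genes higher and 36.6% lower, with a median log2FC of 0.17. From P6 to P15 2 rose and 4 fell (30.4% and 31.4% of all genes), with a median of -0.38, Ccl3 among them with -1.12. From P15 to 8 weeks, when Csf1 fell by 0.43, 6 of the 9 rose and 0 fell by edgeR (24% and 23.9% of all genes), with a median of 0.72. Within groups the mean of the 9 genes had r = 0.72 with Csf1 over 34 mice, and r = 0.74 with Csf1r, 0.80 with Csf3r and -0.58 with Il34. Their part in the Csf1 values was not tested.

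Il34, which encodes the other CSF1R ligand, was low and did not pass in any age comparison. Its lowest, median and highest CPM were 1.11, 5.13 and 7.503 at P6, 1.82, 7.56 and 19.4 at P15 and 3.79, 6.33 and 14.5 at 8 weeks, or 35 to 576 counts per mouse. It varied most between mice of an age, with coefficients of variation of 38.0%, 60.4% and 45.1% at the 3 ages in order, against 9.94% to 29.5% in the other 6 genes. The log2FC was 0.70 (SE 0.315, FDR 0.0528) for P15 against P6, -0.31 (SE 0.293, FDR 0.385) for 8 weeks against P15 and 0.39 (SE 0.313, FDR 0.263) for 8 weeks against P6. The P15 against P6 difference passed with DESeq2 (FDR 0.0339) and with age alone in the model (FDR 0.0346). With the neuronal and progenitor markers as a covariate the values were 1.63 (FDR 7.49e-05), 1.22 (FDR 0.0163) and 2.85 (FDR 1.95e-04), the last across marker means that do not overlap.

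Ratios of 2 genes within a mouse do not depend on how mice are scaled, and each gene was therefore also set against Csf1r. This choice was made after the values were seen, and the 21 comparisons were tested by 2-sided permutation of the ages over mice, with 100000 permutations and Benjamini-Hochberg adjustment. Csf3r rose relative to Csf1r, from a mean log2 count ratio of -4.63 ± 0.150 at P6 (SD, n = 10) to -4.29 ± 0.216 at P15 (n = 12) and -3.47 ± 0.170 at 8 weeks (n = 12). The differences were 0.34 to P15 (adjusted permutation p = 0.00115) and 1.16 from P6 to 8 weeks (adjusted permutation p = 2.1e-05). The ranges overlapped between P6 and P15, and 8 weeks overlapped with neither. The other receptor genes fell relative to Csf1r from P6 to 8 weeks, Csf2ra by 0.66, Csf2rb by 0.95 and Csf2rb2 by 0.36 on the log2 scale, each with an adjusted permutation p of 3.5e-05 or 2.1e-05. Their CPM values rose over the same interval, so the direction of these 3 genes depended on the reference. Relative to Csf1r, Csf2ra was lowest at P15, 1.27 below P6, and 0.60 higher again at 8 weeks than at P15 (adjusted permutation p = 0.00276). Csf1 fell by 2.47 from P6 to P15 and by 2.92 from P6 to 8 weeks relative to Csf1r (adjusted permutation p = 2.1e-05 for both), and Il34 by 0.84 from P6 to 8 weeks (adjusted permutation p = 0.0406).

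The balance of the beta chain genes differed between P6 and both later ages. The log2 count ratio of Csf2rb2 to Csf2rb was -1.12 ± 0.0933 at P6 (SD, n = 10), -0.61 ± 0.0698 at P15 (n = 12) and -0.53 ± 0.101 at 8 weeks (n = 12). Every later mouse was above every P6 mouse. The difference from P6 was 0.52 at P15 and 0.59 at 8 weeks, each with an adjusted permutation p of 2.1e-05, and that between P15 and 8 weeks was 0.07 (adjusted permutation p = 0.0631). Per kilobase the median ratio was 0.712 at P6, 1.01 at P15 and 1.06 at 8 weeks with merged exons, and 0.479, 0.681 and 0.717 with the longest transcripts, so whether it reached 1 depended on the length used. The stretches the genes share are a fixed property of their sequence, and how the reads from them were assigned at each age was not tested.

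**Figure D3:**
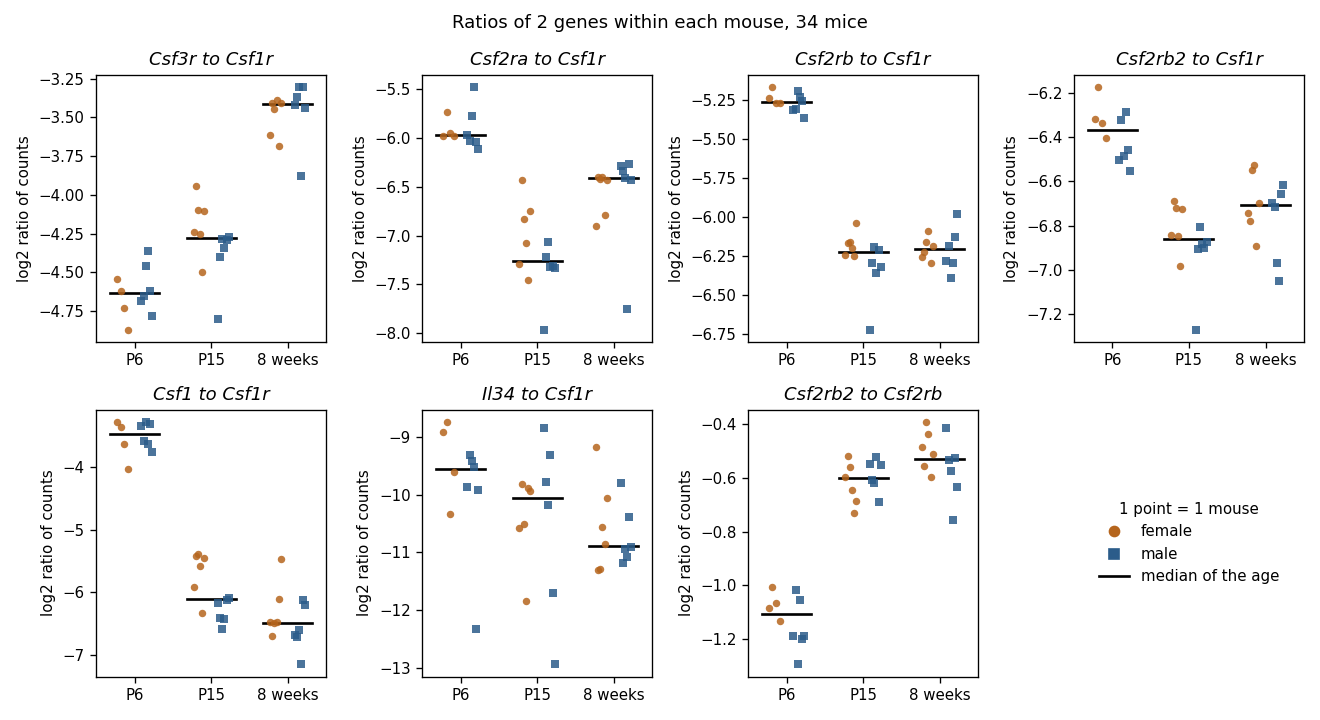
log2 ratio of the counts of 2 genes in each mouse at P6, P15 and 8 weeks, with females as circles, males as squares and the median as a bar. Csf3r to Csf1r is higher at 8 weeks than at both younger ages in every mouse, Csf2rb to Csf1r is lower at both later ages than at P6 in every mouse, and Csf2rb2 to Csf2rb is higher at both later ages than at P6 in every mouse.

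Male and female microglia were compared at each age to ask whether the receptor system differed by sex. No member was called at P6, where 9 genes (0.0511% of all tested) were called, at P15, where 12 genes (0.0681%) were, or at 8 weeks, where 20 genes (0.114%) were. None of the 7 had an unadjusted p under 0.05 in the edgeR fit on 34 mice, and none was called by DESeq2 or limma-voom. Among the other edgeR fits, Csf3r at P6 had an unadjusted p of 0.0101 with all 35 mice (FDR 0.221), 0.0287 with the P6 groups alone (FDR 0.25) and 0.0479 with no filter (FDR 0.724). Csf1 had 0.0458 at P6 with all 35 mice (edgeR FDR 0.273) and 0.0424 at P15 with library size scaling (edgeR FDR 0.243). At P6 the male minus female log2FC ran from -0.35 (SE 0.462) for Il34 to 0.35 (SE 0.242) for Csf1, and Csf3r had the lowest p, with 0.33 (SE 0.165, unadjusted p = 0.0563 and FDR 0.696 by edgeR). At P15 the values ran from -0.31 for Csf1 (SE 0.215) to 0.51 for Il34 (SE 0.414). At 8 weeks they ran from -0.24 for Csf1 (SE 0.215) to 0.12 for Csf3r (SE 0.146), and Csf1r had 0.10 (SE 0.171). The interaction of sex and age called 0% of all genes by edgeR, with 2083 of 17612 at an unadjusted p under 0.05, and no member was among those. It was not fitted with another tool.

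Within groups of the same age and sex, the receptor genes went with the markers of microglia and of monocytes and border macrophages, and Il34 went with markers of other brain cells. Deviations from the group mean were correlated over 34 mice with 8 marker lists, 56 correlations in all, by permutation within groups. Csf3r had r = 0.91 with the microglial markers (Spearman's rho 0.81), Csf2rb2 r = 0.90 (rho 0.81), Csf2rb r = 0.89 (rho 0.84), Csf1r r = 0.83 (rho 0.86) and Csf2ra r = 0.69 (rho 0.70). The permutation p was at most 8e-05 in each (adjusted 2.36e-04), and without the 2 mice farthest from the median r was 0.59 to 0.86. With the monocyte and border macrophage markers the same 5 genes had r = 0.76 for Csf3r (rho 0.53), 0.75 for Csf2rb2 (rho 0.60), 0.72 for Csf2rb (rho 0.60), 0.66 for Csf2ra (rho 0.62) and 0.55 for Csf1r (rho 0.51), with a permutation p of at most 0.00309 (adjusted 0.00494). Without the 2 farthest mice r was 0.51 to 0.62 for the other 4, and for Csf2ra it was 0.40 and no longer passed (adjusted permutation p = 0.0576). The same genes were lower in mice with more progenitor marker RNA, with r from -0.92 for Csf3r (rho -0.88) to -0.62 for Csf2ra (rho -0.64), and a permutation p of at most 5.3e-04 (adjusted 0.00106). Csf1 was tied less closely to the microglial markers, with r = 0.46 (adjusted permutation p = 0.0272) and rho = 0.33 (adjusted permutation p = 0.125). Il34 had r = 0.87 with the astrocyte markers (rho 0.79, permutation p = 2e-05, adjusted 7e-05, r = 0.81 without the 2 farthest mice). It had r = 0.78 with the oligodendrocyte markers (rho 0.78), 0.74 with the endothelial and pericyte markers (rho 0.78) and -0.66 with the microglial markers (rho -0.54), each with a permutation p of at most 6.6e-04 (adjusted 0.00125). With the progenitor markers Il34 had r = 0.71 (rho 0.52, adjusted permutation p = 3.41e-04), and with the neuronal markers 0.58 (rho 0.46, adjusted permutation p = 0.00476). With the monocyte and border macrophage markers Il34 had r = -0.63 (rho -0.57, adjusted permutation p = 0.00697). No member passed with the neutrophil markers, with r between -0.23 and -0.09. All lists share libraries and scaling with the members, so a larger share of counts for some genes lowers the CPM of the rest.

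**Figure D4:**
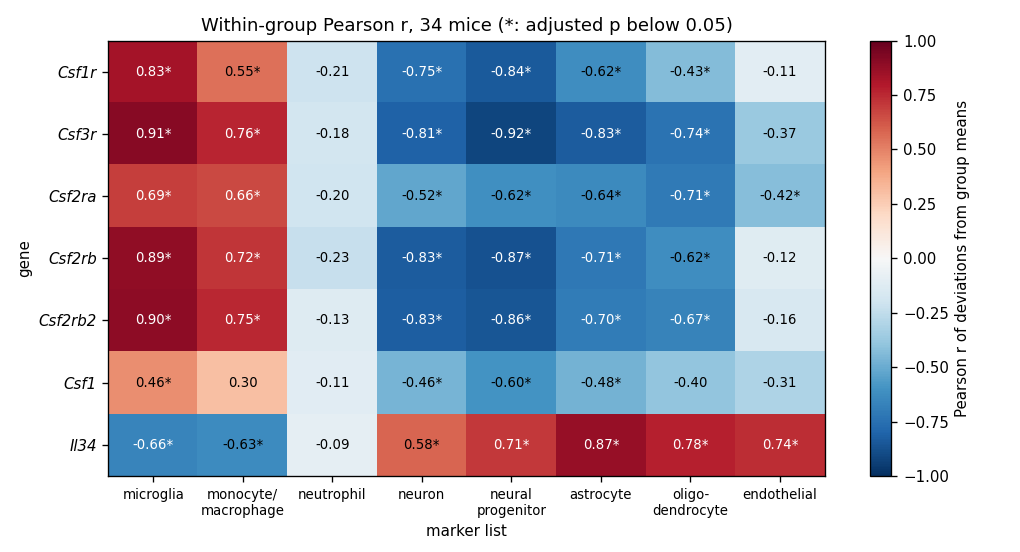
Pearson r between the 7 genes (rows) and 8 marker lists (columns), from deviations of log2 CPM from the age and sex group means over 34 mice, with a star where the adjusted permutation p was below 0.05. The 5 receptor genes are positive with microglial and with monocyte and macrophage markers and negative with neuronal, progenitor and astrocyte markers, and Il34 has the opposite signs, with 0.87 for astrocytes.

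The genes that varied most like each member within groups were listed over the genes tested, as a description across 34 mice that share libraries and depth. Csf1r was nearest to Vsir (r = 0.99), which encodes an immune checkpoint protein, Laptm5 (0.99) and Slco2b1 (0.99). Csf3r was nearest to Trim26 (r = 0.96), Lyn (0.95), a kinase that acts below this receptor, and Plcb2 (0.95). Csf2rb was nearest to Pik3ap1 (r = 0.97), Nfam1 (0.96) and its copy Csf2rb2 (0.96), and Csf2rb2 to Fkbp15 (0.96), Csf2rb (0.96) and Tgfbrap1 (0.95). Csf2ra stood with Kctd12 (r = 0.94), Ssh2 (0.94) and Ankrd44 (0.94), and it had r = 0.50 with Csf2rb, its partner chain. Csf1 stood with Rasgef1b (r = 0.90), Ccrl2 (0.86) and Id2 (0.86). Il34 stood with Arhgef17 (r = 0.96), Serpinh1 (0.95), a collagen chaperone, and Fstl1 (0.95).

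Of the other ligands and alpha chains that use these receptors, only Il3ra passed the filter. Csf2, which encodes GM-CSF, had at most 18 counts in any mouse, Csf3, which encodes G-CSF, 6, Il3 1, Il5 6 and Il5ra 12. Il3ra, the alpha chain that joins the beta chains in the IL-3 receptor, fell while Csf2rb2 rose. Its lowest, median and highest CPM were 14.5, 20.7 and 26.5 at P6 and 3.59, 4.95 and 6.46 at 8 weeks, without overlap, and its log2FC was -2.05 (SE 0.136, FDR 1.13e-14).

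Among 22 adaptors, kinases and phosphatases that act below CSF1R, 13 rose and 3 fell between P6 and 8 weeks, with a median log2FC of 0.47 against 0.04 over all genes, of which 37.8% rose and 36.6% fell. The Src family kinase gene Fgr (2.18, FDR 4.08e-11), Pik3r1 (1.28), a regulatory subunit of PI3 kinase, and Inpp5d (1.22), a phosphatase that opposes PI3 kinase, rose past 2-fold. Fgr was low, with medians of 2.83 CPM at P6 and 11.4 at 8 weeks. Fyn, another Src family kinase, fell past 2-fold with -1.64 (FDR 1.56e-16). Plcg2, a phospholipase, rose with 0.71 (FDR 2.38e-06). Grb2, the adaptor that couples the receptor to Ras, had 0.11 (FDR 0.239), and Tyrobp, the adaptor DAP12, 0.21 (FDR 0.104), so neither passed. From P6 to P15, 12 of the 22 rose and 3 fell (30.4% and 31.4% of all genes), and from P15 to 8 weeks 6 rose and 2 fell (24% and 23.9% of all genes).

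Below the beta chains and the G-CSF receptor, 8 of 14 JAK-STAT genes rose and 3 fell between P6 and 8 weeks, beside 37.8% and 36.6% of all genes, with a median log2FC of 0.34. Jak2, the kinase bound to the beta chain, rose by 0.36 (FDR 0.0212), Stat5a by 0.93 (FDR 1.41e-08) and Stat5b by 1.16 (FDR 4.23e-14), the last past 2-fold. Of the feedback inhibitors Socs1, Socs3 and Cish, 2 rose and 1 fell. Socs1 rose by 1.12 (FDR 1.71e-08). Socs3, which acts on the G-CSF receptor, rose from a median of 101 CPM at P6 to 689 at 8 weeks with a log2FC of 2.86 (FDR 4.86e-15). Cish, induced by STAT5, fell from 9.46 to 3.45 CPM with -1.47 (FDR 1.53e-09), and Pim1, another STAT5 target, from 135 to 65.5 CPM with -1.32 (FDR 1.14e-08).

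Of 7 transcription factors known to act on the Csf1r gene, 5 rose (37.8% of all genes) and 1 fell (36.6%), with a median log2FC of 0.72. Cebpa (1.72, FDR 6.89e-13) and Irf8 (1.23, FDR 7.02e-11) rose past 2-fold, and Runx1 rose by 0.65 (FDR 2.03e-06). Spi1, which encodes PU.1, had medians of 322 CPM at P6 and at 8 weeks and a log2FC of 0.07 (SE 0.123, FDR 0.606).

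Of 6 genes for proteases that shed CSF1R or CSF1 and for further IL-34 receptors, 3 rose and 2 fell, shares near the 37.8% and 36.6% of all genes, with a median log2FC of 0.28. Sdc1, a proteoglycan that binds IL-34, fell with -3.37 (FDR 6.87e-13) to a median of 0.647 CPM. Ptprz1, a phosphatase that also binds IL-34 and is a gene of glia and progenitors, fell with -1.30 (FDR 2.21e-04). Among 8 genes of the other class III receptor kinases and their ligands, 5 rose and 2 fell (37.8% and 36.6% of all genes), with a median of 1.03. Flt3l (2.04, FDR 8.94e-13) and Pdgfb (1.51, FDR 5.2e-11) rose past 2-fold, and Kit (-2.35, FDR 6.05e-12) and Pdgfra (-3.43, FDR 1.87e-13), a marker of oligodendrocyte precursors, fell past 2-fold. Flt3 rose by 1.16 (FDR 1.57e-07) from a median of 0.984 CPM.

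**Figure D5:**
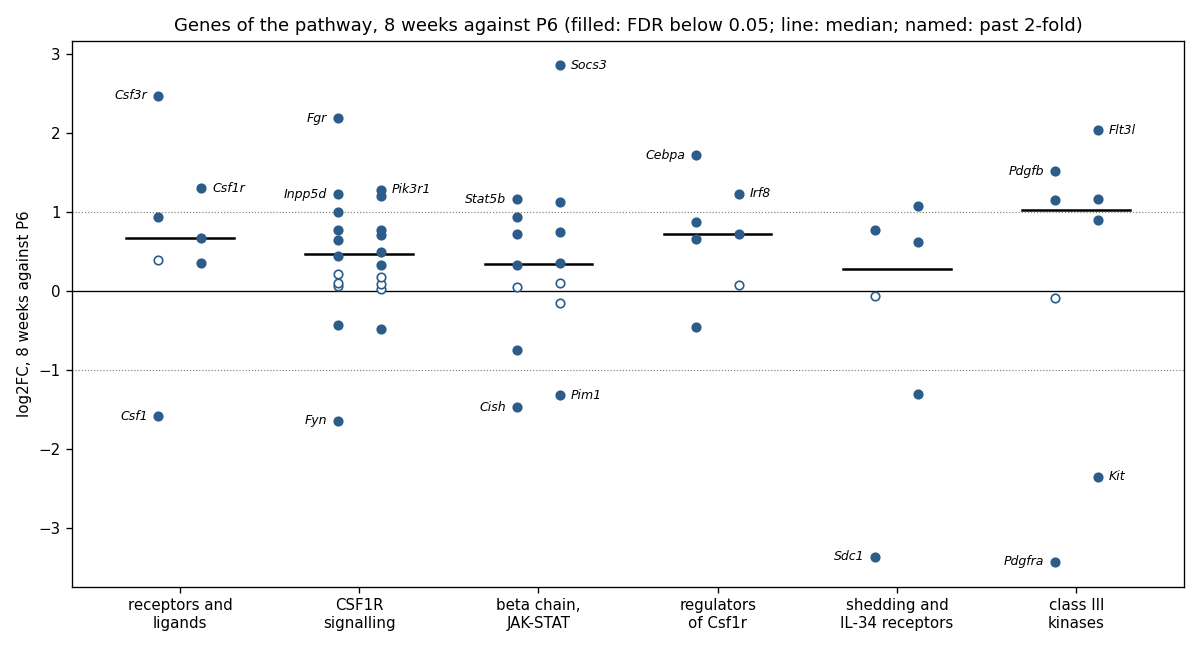
log2FC between P6 and 8 weeks of the 7 genes and of each pathway list, with 1 point per gene reported, filled where the FDR was below 0.05, a bar at the list's median and names where the change was past 2-fold. The medians of all lists lie above 0, from 0.28 to 1.03, and the lists hold genes with opposite changes, such as Socs3 (2.86) and Cish (-1.47).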

How the data were processed

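Whole-transcriptome mRNA was measured in CD45+ cells of 35 mice. Per the labels and the study's methods, the authors aligned paired reads of directional libraries to GRCm38 (mm10) with STAR and counted them by strand with featureCounts of Subread, and the deposited values are raw counts per gene. The annotation release behind the counts is not given in the sources used here. Identifiers were named with GENCODE M21 (55141 of 55401 matched), which also gave coordinates and exon lengths.

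Genes that reached 0.5 CPM in at least 5 mice were kept, their counts were scaled by TMM, and age and sex groups were fitted together with edgeR 4.0.16 in R 4.3.3 (glmQLFit, robust, and glmQLFTest). A gene was called at a Benjamini-Hochberg FDR below 0.05, and a change past 2-fold was called with glmTreat. P6 female 6 was left out. The study left out 1 mouse that stood apart by multidimensional scaling, without naming it in the text used here. Groups come from the sample titles, and p-values measure the spread between mice. The 85 pairs of libraries of the same group were checked for copies, and none agreed within sampling noise (at least 13.1 chi-square per gene). Log2 CPM for correlations used a prior count of 2. The CPM range of 3 counts covers only the spread of library totals between mice. The edgeR step, and the correlation step, were tested on simulated data. The alternatives were DESeq2 1.42.0 and limma 3.58.1, other scalings and filters, all 35 mice, fewer groups, marker covariates and a replicate block. Ratios and correlations used permutations in Python 3.11.15, for which 1e-05 is the smallest p that can be reached.

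The 7 genes, the pathway and marker lists were chosen with earlier results of these data known. Named were all members, the 6 other ligands and alpha chains, the pathway genes past 2-fold between P6 and 8 weeks (at most 4 per direction and list), a fixed set of core signalling genes, and the 3 genes nearest to each member. Promoters came from RefSeq and matched Csf1, Csf2ra, Csf2rb2 and Csf3r. Those of Csf1r, Il34 and Csf2rb were not used here. A microglial marker and a pathway gene are counted in their lists but not reported by name here.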

Additional observations from a re-analysis of the deposited data

Results flagged for a closer look

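In 4 cases 1 mouse of a group of 6 stood far from the others of its age and sex, by a gap larger than Dixon's 95% limit for the group's range. Chance flags about 1 group in 20. Csf1r had its highest level among the females of 8 weeks in female 5 (11786 CPM) and among the males of 8 weeks in male 4 (14094 CPM). Csf2ra had its lowest level among the females of 8 weeks in female 1 (70.1 CPM) and among the males of 8 weeks in male 4 (65.3 CPM). Male 4 of 8 weeks thus had both the highest Csf1r and the lowest Csf2ra value of its age.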

How the results depend on the processing

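Of 342 alternative values for the log2FC of the 7 genes between ages, 314 kept direction and call, and all 8-week against P6 values of Csf1, Csf3r and Il34 kept their direction. The covariate of neuronal and progenitor markers changed most. For P15 against P6 it gave 1.63 for Il34, -0.32 for Csf2ra and -0.26 for Csf2rb. For 8 weeks against P15 it gave -0.68 for Csf1r, 1.22 for Il34, 0.12 for Csf2ra, -0.70 for Csf2rb, -0.53 for Csf2rb2 and 0.18 for Csf3r. For 8 weeks against P6, whose marker means do not overlap, it gave 0.13 for Csf1r, 2.85 for Il34, -0.20 for Csf2ra, -0.96 for Csf2rb and -0.21 for Csf2rb2. It called 3 members lower for P15 against P6, 1 higher and 4 lower for 8 weeks against P15, and 2 higher and 2 lower for 8 weeks against P6. The share of all genes called with this covariate was not counted. The cause of these changes was not tested.

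Scaling by library size gave -0.070 for Csf2ra and 0.18 for Csf2rb for P15 against P6. Il34 passed in that comparison with DESeq2 (0.71) and with age alone in the model (0.75). Without 1 P6 female the Csf2rb value for P15 against P6 ran from 0.27 to 0.31 and for 8 weeks against P6 from 0.29 to 0.34. The Csf1r value for 8 weeks against P15, near 0, turned positive with all 35 mice (0.00065), limma-voom (0.010), the compared groups alone (0.0051) and the neutrophil covariate (0.017). A 2-fold threshold left 2 members higher and 0 lower for P15 against P6, 0 and 0 for 8 weeks against P15, and 2 higher for 8 weeks against P6.

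The male minus female value of Csf2rb2 at 8 weeks, 0.0035, turned negative with all 35 mice (-0.0078), DESeq2 size factors and the DESeq2 test (both -0.0046), library size (-0.031), no filter (-0.015), 10 counts in every mouse (-0.013), the compared groups alone (-0.017), and without P6 female 2, 3 or 5 (-0.0095 to 0.0038 over the 4 P6 females left out in turn). The r of Csf2rb2 with neutrophil markers turned to 0.0029 without the 2 farthest mice and 0.025 with all 35. Of 56 such correlations, 6 lost and 1 gained the threshold in 112 alternatives. All 21 ratio differences kept direction and call with 35 mice. Per kilobase of the longest transcript 7 of 21 levels moved by more than 1 SD.

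Mice of the same sex and replicate number at 2 ages had r over 0.1 in 13 of 32 pairs of mice (-0.299 to 0.566, median 0.0789), so the number was not taken to pair the mice. With that number as a replicate block, P15 against P6 was 0.72 (FDR 0.0434) for Il34 and 0.27 (FDR 0.0505) for Csf2rb, Csf1r for 8 weeks against P15 was 0.011 and the sex value of Csf2rb2 at 8 weeks was -0.00099. No other call of a member changed.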
